A study of Mus musculus with 6 samples.

Results

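The genes of protein folding and stress control in the endoplasmic reticulum (ER) were examined in mouse eosinophils, granulocytes that fill their granules with secreted cytotoxic proteins. They comprise 31 genes, selected by symbol from the 23420 genes of the deposited table: ER chaperones and their co-factors, disulfide isomerases, components of ER-associated degradation, the stress sensors with Xbp1, and the regulatory subunits that direct dephosphorylation of eIF2alpha. All 31 were in the table and all passed the filter on low values. The rule names the genes by function, but it was drawn up with earlier results of these data known.

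Wild-type (WT) eosinophils grown from bone marrow were given IL-33, an alarmin cytokine, at 2.5 ng/mL for 3 hours (3 libraries), or PBS as vehicle (3 libraries). Both groups came from marrow cultured in SCF and FLT3-L and then in IL-5 at 20 ng/mL, were used on day 14, and had been cleared of dead cells. Whether replicates are separate animals or cultures is not stated, and p-values therefore reflect only how far these libraries spread, which may be technical. Values below are given in the order of replicates 1, 2 and 3. In bulk RNA, fewer cells of a type and less RNA per cell cannot be told apart.

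The ER imports nascent secreted and membrane proteins, adds glycans and disulfide bonds to them and sends misfolded ones back to the cytosol for destruction. When unfolded proteins accumulate, the sensors IRE1 (Ern1), PERK (Eif2ak3) and ATF6 start the unfolded protein response: IRE1 splices Xbp1 mRNA into the form that encodes an active transcription factor, ATF6 is cut by Golgi proteases into another, and PERK phosphorylates eIF2alpha, which lowers translation and favours that of ATF4. XBP1 is known to be required for eosinophil development in mice.

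Many ER chaperone genes carry the ER stress response element (ERSE), a CCAAT box followed after a spacer by CCACG, to which NF-Y and ATF6 or XBP1 bind. The letters CCAAT, 9 unspecified bases and CCACG were searched on both strands of promoter windows reaching from 250 bases before to 50 bases after each RefSeq gene start (GRCm38.p6, the mm10 assembly). Windows were available for 25 of the members, and 9 of these 25 (36.0%) held an ERSE, against 0.14% of 27025 genes with a window. The related ERSE-II, ATTGG, any base and CCACG, lay in 2 of the 25 members (8.0%) and in 0.04% of all genes. The UPRE core TGACGTG was found in 1 member (4.0%) and 2.22% of all genes, and the C/EBP-ATF element TGATGNAA in 1 member (4.0%) and 4.51% of all genes. Among the 8477 tested genes with a window, the shares were 0.18% for the ERSE and 0.08% for the ERSE-II. They were 3.42% for the UPRE core and 2.77% for the C/EBP-ATF element. In no member did different motifs overlap. A match of letters is a description and not a measured site. Since the ERSE is known from ER chaperone genes, which the members include, its excess here was built into the choice and is no test. The elements are shown because they were far more frequent in the members than in all genes with a window, although 14 of the 25 held neither an ERSE nor an ERSE-II. Each is read 5′ to 3′ in the direction of the element with 8 flanking bases on either side, and capitals mark the fixed letters of the ERSE, or the whole ERSE-II in Dnajb11 and Herpud1.
Hspa5 (chr2:34772017-34772051, + strand): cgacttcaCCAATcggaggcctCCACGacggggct
Hsp90b1, upstream copy (chr10:86705630-86705664, - strand): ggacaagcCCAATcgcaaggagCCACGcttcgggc
Hsp90b1, downstream copy (chr10:86705525-86705559, + strand): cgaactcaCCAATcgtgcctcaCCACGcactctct
Calr (chr8:84847067-84847101, + strand): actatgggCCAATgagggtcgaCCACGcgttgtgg
Canx (chr11:50325792-50325826, - strand): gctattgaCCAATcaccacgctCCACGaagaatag
Dnajc3 (chr14:118937819-118937853, + strand): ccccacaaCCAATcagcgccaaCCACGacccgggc
Creld2 (chr15:88819512-88819546, - strand): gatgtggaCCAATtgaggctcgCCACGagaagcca
Pdia6 (chr12:17266483-17266517, + strand): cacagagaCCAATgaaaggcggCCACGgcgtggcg
Syvn1 (chr19:6046524-6046558, + strand): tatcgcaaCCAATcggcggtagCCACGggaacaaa
Derl3 (chr10:75893234-75893268, - strand): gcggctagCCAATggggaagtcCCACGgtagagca
Dnajb11 (chr16:22857844-22857870, + strand): cggcggcgATTGGCCCACGcctggctg
Herpud1 (chr8:94386369-94386395, + strand): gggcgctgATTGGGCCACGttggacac

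The promoter window of Hspa5, which encodes the chaperone BiP and is the textbook target of the response, is shown whole because it held both an ERSE, starting 65 bases before the gene start, and the UPRE core, starting 157 bases before it. These distances are from the RefSeq start at 34772090, and the GENCODE span of Hspa5 given below begins 120 bases further upstream, so that by that annotation the ERSE lies within the gene. Capitals mark these matches.
Hspa5 promoter (chr2:34771840-34772139, + strand): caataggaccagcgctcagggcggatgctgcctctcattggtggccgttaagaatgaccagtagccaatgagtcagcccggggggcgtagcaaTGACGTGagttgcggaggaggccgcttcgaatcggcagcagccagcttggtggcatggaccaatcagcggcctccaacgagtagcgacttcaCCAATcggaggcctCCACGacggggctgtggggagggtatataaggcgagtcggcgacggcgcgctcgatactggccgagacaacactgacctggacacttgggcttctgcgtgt

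After IL-33 the ER genes did not move as a block. Ppp1r15a, Ppp1r15b, Xbp1, Derl1 and Edem1 were higher than in PBS, and Pdia4, Calr, Pdia3, Dnajc3 and Edem2 were lower. The other 21 members did not pass the test. Called members thus numbered 5 higher (16.1%) and 5 lower (16.1%), where a call is an adjusted p under 0.05 in limma on log2(normalized count + 1), with Benjamini-Hochberg adjustment over all genes tested. Of the 10544 genes tested, 17.4% were higher and 14.4% lower, 31.9% together, so the members' share of 32.3% was near the background. The median log2 fold change was 0.02 over the members and −0.03 over all genes tested. In 8 members all IL-33 values lay above all PBS values (25.5% of all genes), and in 8 all lay below (24.7% of all genes).

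**Figure D1:**
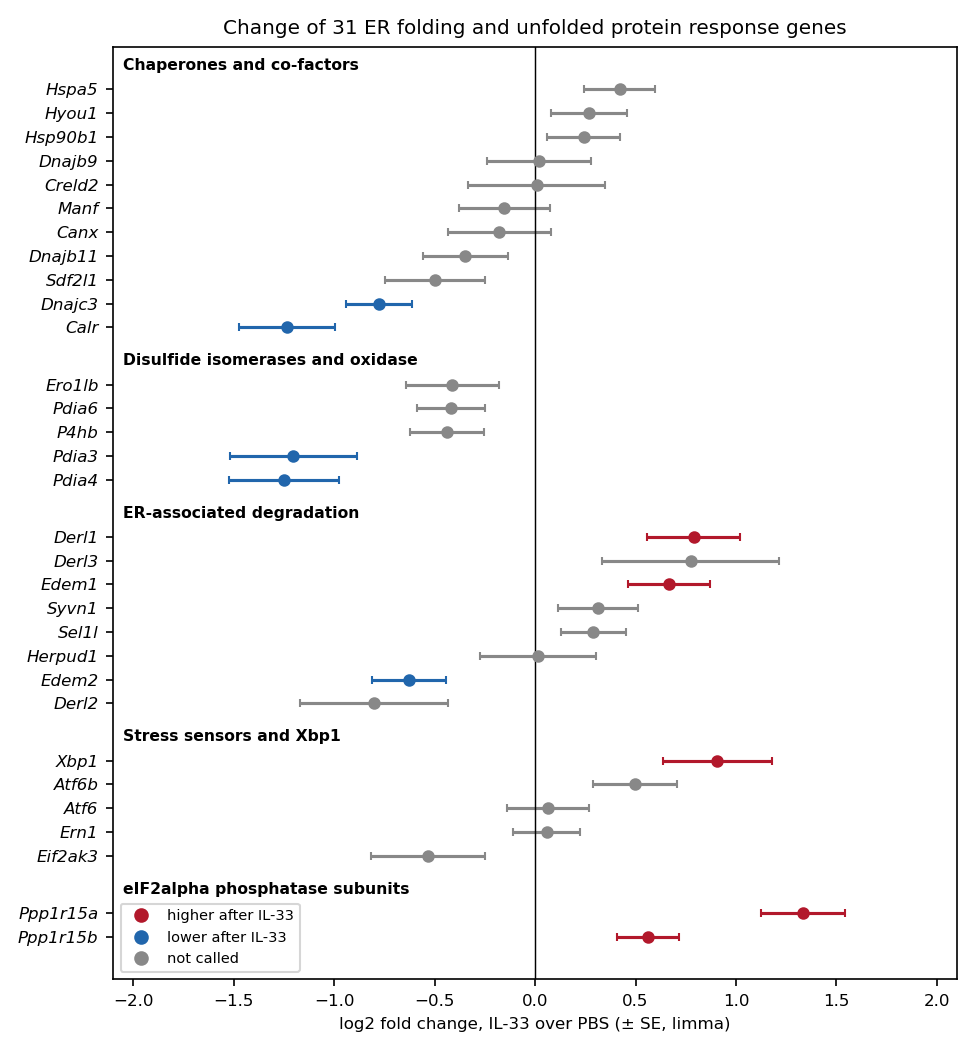
Log2 fold change (IL-33 over PBS, horizontal axis, limma, bars ± SE, 3 libraries per group) of each of the 31 genes, grouped by role and coloured by call. As scaled by the authors, the disulfide genes all lie below 0, both eIF2alpha phosphatase subunits lie above 0, and the chaperones spread from 0.42 for Hspa5 to −1.23 for Calr.

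Depth and scaling limit these values. The recovered reads outside Rn45s, the ribosomal RNA precursor gene, numbered 4229504 to 7129435 per library after IL-33 and 6592044 to 7091546 with PBS, and Rn45s took 24.3% to 59.6% of the IL-33 reads and 13.7% to 24.8% of the PBS reads. IL-33 replicate 1, at 24.3%, lay within the PBS range and stood apart from the other IL-33 libraries, and the part of Rn45s or of this library in the results was not tested. The 31 genes held 0.503%, 0.504% and 0.467% of the reads outside Rn45s after IL-33, against 0.577%, 0.609% and 0.545% with PBS, so the IL-33 libraries were lower on this measure without overlap. As scaled by the authors, their summed normalized counts went the other way, also without overlap. The sums were 32240 to 33733 after IL-33 and 26997 to 30520 in PBS. Scaling to equal totals shifted the median of all genes to −1.06 and of the members to −1.03, and scaling to equal totals without Rn45s shifted them to −0.45 and −0.41. The members called were then 0 higher and 18 lower, against 2.5% and 50.1% of all genes, or, without Rn45s, 1 higher and 12 lower, against 9.02% and 33.9%. Directions below are those of the authors' scaling.

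The labelled cell type was checked against its markers. All 12 eosinophil markers were in the table, and their summed normalized counts were 25059 to 35783 after IL-33 and 54287 to 65300 in PBS, with 1 gene higher and 10 lower. The shares to set beside this list and those that follow are 17.4% higher and 14.4% lower of all genes tested. Markers of plasma and B cells, which are rich in ER, summed to 32.2 to 53.0 after IL-33 and 51.7 to 70.6 in PBS over the 9 of 12 found, with Tnfrsf17 at 0 in every library and Mzb1 at no more than 0.899. The macrophage and dendritic cell list had 4 of 7 tested genes higher. The other 3 were not called and had negative log2 fold changes, down to −0.84. The list summed to 25825 to 32586 after IL-33 and 9282 to 11871 in PBS, mostly from Emr1, which eosinophils also express, and Csf1r. Cd14 had the list's largest change, at 898, 1012 and 802 normalized counts after IL-33 and 106, 64.0 and 48.9 in PBS (log2 fold change 3.68, adjusted p = 1.72e-04, limma), and Itgax was the other gene called (0.74, adjusted p = 0.0324, limma). C1qb reached 13.6 and Mrc1 22.5, while C1qa, C1qc, Fcgr1 and Mertk were at no more than 5.08 in any library. The neutrophil list summed to 2471 to 3197 after IL-33 and 3097 to 3707 in PBS, with 3 of 11 tested genes lower, and the mast cell and basophil list to 3169 to 4625 after IL-33 and 2255 to 3945 in PBS, with 2 of 8 lower. The T, NK and innate lymphoid list summed to 18.6 to 49.2 after IL-33 and 41.2 to 48.7 in PBS, with neither of its 2 tested genes called, and the erythroid and megakaryocyte list to 2382 to 3022 after IL-33 and 2499 to 3321 in PBS, with 1 of 4 higher. Their part in the results below was not tested.

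Both eIF2alpha phosphatase subunits rose as scaled by the authors, whereas with equal totals neither was called and Ppp1r15b turned to −0.48. Ppp1r15a encodes GADD34, the inducible subunit that restores translation after PERK and related kinases have acted (chromosome 7, 45522916 to 45526268). Its normalized counts were 1057, 964 and 927 after IL-33, against 519, 330 and 344 with PBS. The groups were well apart, and the 3 IL-33 libraries lay close together. The mean was 983 ± 67.1 after IL-33 and 398 ± 105 in PBS (SD, n = 3 each), a 2.52-fold difference (log2 fold change 1.33, SE 0.21, adjusted p = 0.00351, limma). Ppp1r15a was called without each of the 6 libraries in turn (log2 fold change 1.21 to 1.54), in edgeR (1.29, adjusted p = 0.00424) and DESeq2 (1.31, adjusted p = 1.47e-06), and with Rn45s left out of equal totals (0.91, adjusted p = 0.0124, limma), but not with plain equal totals (0.29, adjusted p = 0.501, limma).

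Ppp1r15b encodes CReP, the constitutive subunit (chromosome 1, 133131143 to 133139783). It had 3031, 3113 and 3625 normalized counts after IL-33, against 2431, 2123 and 2062 with PBS, again without overlap. The difference was smaller than for Ppp1r15a (log2 fold change 0.56, SE 0.16, adjusted p = 0.0283, limma), and 11.4% of its exonic bases overlap an antisense gene. Equal totals without Rn45s left it at 0.14 (adjusted p = 0.448, limma). It was called only without IL-33 replicate 1 among the fits that leave out 1 library. The others gave log2 fold changes of 0.59 and 0.48 without IL-33 replicates 2 and 3, and 0.63, 0.54 and 0.51 without PBS replicates 1, 2 and 3. Per kilobase of exon, Ppp1r15a stood at 0.664, 0.590 and 0.487 of the level of Ppp1r15b after IL-33, against 0.406, 0.296 and 0.318 with PBS, a ratio within each library that no scaling alters. The pairs of genes for such ratios were chosen after their values were seen, and the ratios are descriptions with no test. Not every pair separated the groups, as given below for Atf6b and Atf6.

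Among the sensors and their transcription factor, Xbp1 rose and the sensors did not pass the test. Xbp1 (chromosome 11, 5520659 to 5525893) had 554, 1150 and 824 normalized counts after IL-33, against 501, 427 and 371 with PBS. All IL-33 values lay above all PBS values, though replicate 1 only just, and replicate 2 was the highest. Means were 843 ± 299 after IL-33 and 433 ± 65.1 in PBS (log2 fold change 0.91, SE 0.27, adjusted p = 0.0363, limma). The gene-level count does not separate spliced from unspliced Xbp1 mRNA, so IRE1 activity was not measured. The call was lost without IL-33 replicate 2 (log2 fold change 0.65) or 3 (0.89) and without PBS replicate 1 (1.02), 2 (0.90) or 3 (0.80), and it was 0.37 with IL-33 replicate 1 alone. With equal totals Xbp1 stood at −0.13, and without Rn45s at 0.48.

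Ern1, which encodes IRE1alpha, had 298, 355 and 317 normalized counts after IL-33 and 299, 330 and 301 in PBS. The IL-33 values spanned the PBS values (log2 fold change 0.06, SE 0.17, adjusted p = 0.804, limma). Atf6 had 508, 449 and 322 after IL-33 and 425, 389 and 389 in PBS (0.07, SE 0.21, adjusted p = 0.824, limma). Its IL-33 values lay on both sides of the PBS values. Atf6b, a paralog of Atf6, had 304, 431 and 475 after IL-33 and 266, 298 and 278 in PBS. Its groups did not overlap, but it missed the threshold (log2 fold change 0.50, SE 0.21, adjusted p = 0.0984, limma), and it passed without IL-33 replicate 1 (0.69, adjusted p = 0.00265, limma). Eif2ak3, which encodes PERK, had 189, 343 and 414 after IL-33 and 415, 445 and 442 in PBS (log2 fold change −0.53, SE 0.28, adjusted p = 0.173, limma). Replicate 1 was the lowest, at −1.19 from the PBS mean on the log2 scale. An antisense gene overlaps 8.0% of the exonic bases of Eif2ak3. The ratio of Atf6b to Atf6 per kilobase was 2.00, 3.21 and 4.93 after IL-33, against 2.09, 2.57 and 2.40 with PBS. IL-33 replicate 1 lay below the PBS values, so this ratio did not separate the groups. The ratio of Xbp1 to Ern1 was 4.68, 8.15 and 6.54 after IL-33, against 4.22, 3.25 and 3.11 with PBS, without overlap.

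**Figure D2:**
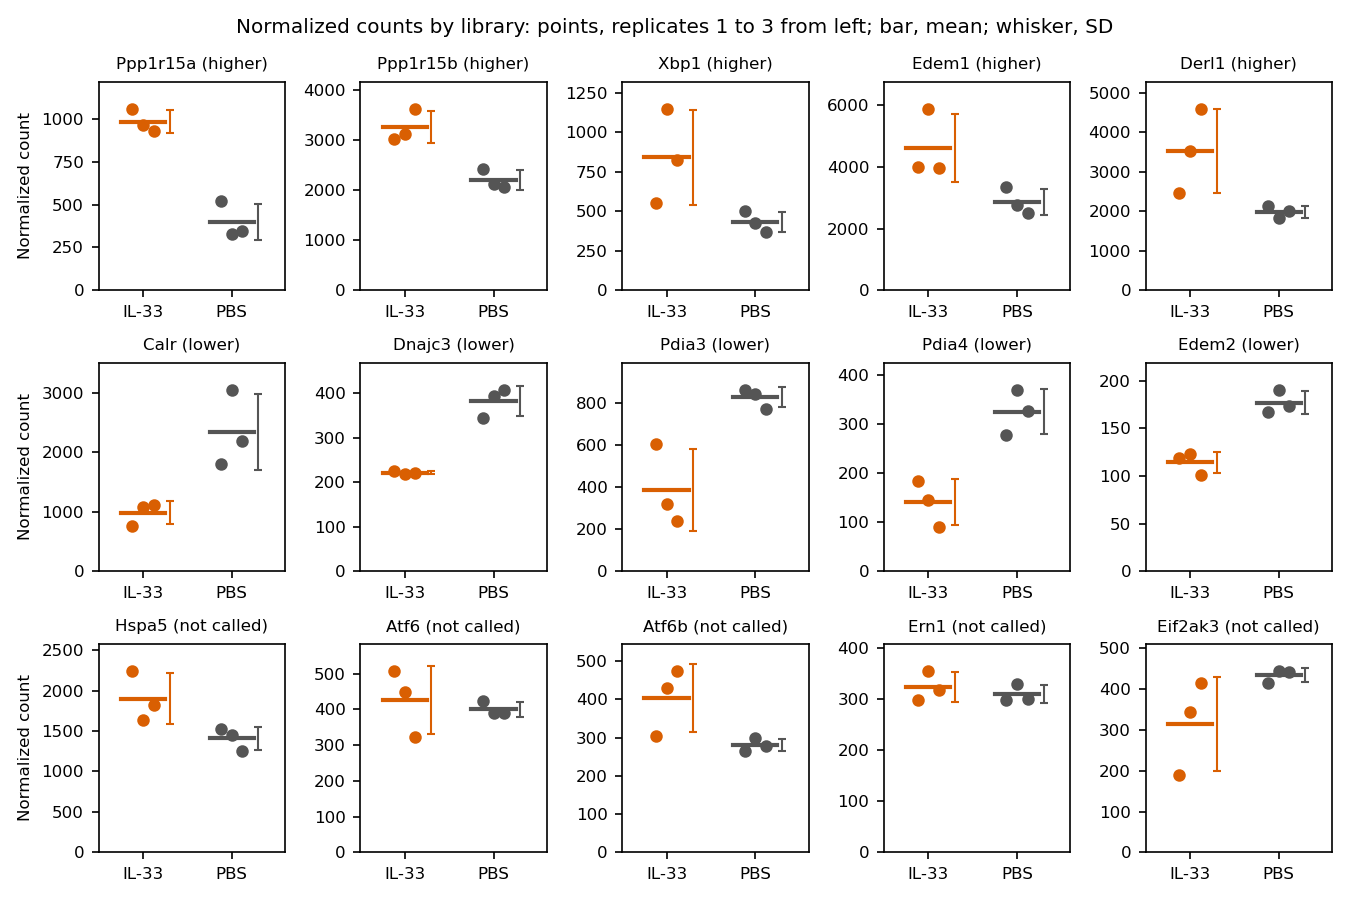
Normalized counts (vertical axes, from 0) in each library for the 10 called members, Hspa5 and the 4 sensors, IL-33 left of PBS. Points are replicates 1 to 3 from left to right, bars the means and whiskers the SD over 3 libraries. The groups do not overlap in any of the 10 called genes, and Xbp1 ranges from 554 to 1150 within the IL-33 libraries.

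The chaperones as a group held 0 higher, 2 lower and 9 uncalled members of 11 (0% higher and 18.2% lower, against 17.4% and 14.4% of all genes), with a median log2 fold change of −0.15 and −0.03 over all genes. At an unadjusted p under 0.05 in limma 1 was higher, Hspa5, and edgeR and DESeq2 called 0 higher. Calr encodes calreticulin, the soluble lectin chaperone of glycoproteins that also stores calcium (chromosome 8, 84841850 to 84846934). It had 771, 1081 and 1112 normalized counts after IL-33 and 1802, 3053 and 2196 in PBS. The highest IL-33 value was well below the lowest PBS value. The means were 988 ± 188 after IL-33 and 2350 ± 639 in PBS (log2 fold change −1.23, SE 0.24, adjusted p = 0.008, limma). Calr was called without each library in turn, and in edgeR and DESeq2. Calr was the member with an ERSE that had the lowest fold change.

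Canx, which encodes calnexin, the membrane-bound lectin chaperone with the same substrates, was not called with all libraries. It had 2953, 2084 and 1434 normalized counts after IL-33 and 2261, 2623 and 2157 in PBS, so that the IL-33 libraries surrounded the PBS ones (log2 fold change −0.18, SE 0.26, adjusted p = 0.604, limma). Without IL-33 replicate 1 it passed (−0.44, adjusted p = 0.0482, limma), and without IL-33 replicate 3 its log2 fold change was 0.08. Per kilobase of exon, Calr stood at 0.426, 0.845 and 1.26 of the level of Canx after IL-33, against 1.30, 1.90 and 1.66 with PBS. The ratio was below every PBS value in each IL-33 library, only just in replicate 3.

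Dnajc3 encodes p58IPK, a co-chaperone of BiP that also inhibits PERK (chromosome 14, 118937976 to 118981697). It had 226, 218 and 222 normalized counts after IL-33, nearly the same in the 3 libraries, and 344, 394 and 408 in PBS (log2 fold change −0.78, SE 0.16, adjusted p = 0.0112, limma). Leaving out PBS replicate 2 ended the call (−0.75, adjusted p = 0.0673, limma), as did leaving out PBS replicate 3 (−0.73, adjusted p = 0.0754, limma).

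Hspa5, the BiP gene (chromosome 2, 34771970 to 34777547), had 2245, 1632 and 1819 normalized counts after IL-33 and 1530, 1446 and 1255 in PBS. Every IL-33 value was above every PBS value, but the difference missed the threshold (log2 fold change 0.42, SE 0.18, adjusted p = 0.0999, limma). Equal totals put it at −0.62. Hsp90b1, which encodes GRP94, the ER member of the HSP90 family, averaged 3293 ± 479 after IL-33 and 2793 ± 470.1 in PBS (0.24, adjusted p = 0.33, limma), and 15.7% of its exonic bases overlap other genes. Hyou1, which encodes GRP170, a nucleotide exchange factor of BiP, averaged 2878 ± 585 after IL-33 and 2362 ± 172 in PBS (0.27, adjusted p = 0.298, limma) and was called without IL-33 replicate 1 (0.44, adjusted p = 0.0155, limma). The groups overlapped for both.

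The remaining chaperone genes were less abundant, and none passed the test with all libraries. Dnajb9 and Dnajb11, which encode the BiP co-chaperones ERdj4 and ERdj3, had log2 fold changes of 0.02 and −0.35. Sdf2l1, a partner of ERdj3, had 110, 192 and 180 normalized counts after IL-33 and 241, 229 and 196 in PBS, without overlap (−0.50, SE 0.25, adjusted p = 0.151, limma). Manf and Creld2 encode small ER proteins that are induced by ER stress. Manf had a log2 fold change of −0.15 and Creld2 of 0.01, and 9.3% of the exonic bases of Manf overlap other genes. Creld2 had 92.6 normalized counts in IL-33 replicate 1, 214 and 224 in replicates 2 and 3, and 155, 191 and 148 in PBS, so that replicate 1 lay below and the others above the PBS range.

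**Figure D3:**
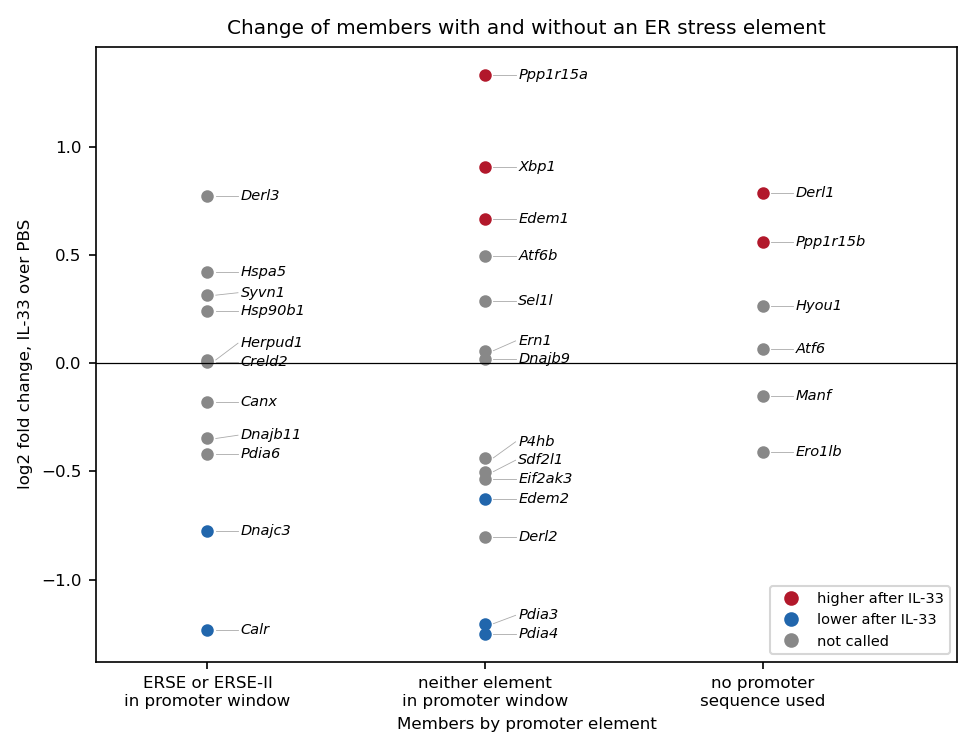
Log2 fold change (IL-33 over PBS, vertical axis) of each member, split by whether its promoter window held an ERSE or ERSE-II, held neither, or was not available. As scaled by the authors, no gene of the 11 with an element was called higher, and Calr and Dnajc3 were called lower. Of all genes tested, 17.4% were higher and 14.4% lower.

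Sorting the members by promoter element gave 0 higher, 2 lower and 9 uncalled genes among the 11 with an ERSE or ERSE-II, with Hspa5 as the 1 higher gene at an unadjusted p under 0.05 (limma) and 0 called higher by edgeR or DESeq2. Their median log2 fold change was 0.01, with a range from −1.23 (Calr) to 0.77 (Derl3). Among the 14 with a window and neither element, 3 were higher, 3 lower and 8 uncalled (median −0.21, from −1.25 to 1.33). Absence of an element depends on the start used. The GENCODE span begins 258 bases upstream of the RefSeq start in Dnajb9 and 127 in Pdia3. Their windows thus lie wholly or partly within that span. The 6 members without a window, Hyou1, Manf, Ero1lb, Derl1, Atf6 and Ppp1r15b, had 2 higher and 0 lower. The shares to set beside these counts are 17.4% higher and 14.4% lower of all genes tested. The difference between these groups of genes was not tested.

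The disulfide genes all had negative log2 fold changes, from −1.25 to −0.41, and 2 of 5 fell, where 14.4% of all genes were lower. Groups did not overlap in 3 of the 5, where 24.7% of all genes were lower without overlap. Pdia4 encodes ERp72, an isomerase with several thioredoxin-like domains (chromosome 6, 47796141 to 47813430). It had 185, 146 and 91.5 normalized counts after IL-33 and 279, 370 and 327 in PBS (log2 fold change −1.25, SE 0.27, adjusted p = 0.0126, limma). The groups were clearly apart, with replicate 3 the lowest. The call ended when PBS replicate 2 was left out (−1.15, adjusted p = 0.0643, limma) and when PBS replicate 3 was (−1.24, adjusted p = 0.0628, limma).

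Pdia3 encodes ERp57, the isomerase that works with calreticulin and calnexin on glycoproteins (chromosome 2, 121413775 to 121438687). It had 606, 318 and 237 normalized counts after IL-33 and 862, 843 and 773 in PBS (log2 fold change −1.20, SE 0.31, adjusted p = 0.0234, limma). IL-33 replicate 1 was the highest of its group and still below the PBS libraries. Without IL-33 replicate 2 it was not called (−1.12, adjusted p = 0.089, limma), nor without PBS replicate 1 (−1.17), 2 (−1.19) or 3 (−1.25), with adjusted p of 0.079, 0.0848 and 0.0814 (limma).

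P4hb, the gene of protein disulfide isomerase itself, had 1802, 1300 and 1256 normalized counts after IL-33 and 2053, 2004 and 1775 in PBS (−0.44, SE 0.18, adjusted p = 0.102, limma). IL-33 replicate 1 overlapped the PBS range, and without it P4hb was called (−0.60, adjusted p = 0.00266, limma). Pdia6, an isomerase that binds IRE1, had 326, 418 and 386 after IL-33 and 493, 531 and 481 in PBS without overlap (−0.42, SE 0.17, adjusted p = 0.0907, limma). Ero1lb, an oxidase that recharges isomerases, had 72.8, 102 and 66.1 after IL-33 and 116, 104 and 96.4 in PBS (−0.41, adjusted p = 0.197, limma), with overlap at replicate 2. The gene of the main ER oxidase, Ero1l, is not among the members and was higher (log2 fold change 2.01, described below).

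Genes of ER-associated degradation went both ways, with 2 higher, 1 lower and 5 uncalled of 8 (25.0% higher and 12.5% lower, against 17.4% and 14.4% of all genes, median 0.30). Derl1 encodes Derlin-1, a component of the channel that returns misfolded proteins to the cytosol (chromosome 15, 57869502 to 57892448). It had 2476, 3526 and 4601 normalized counts after IL-33 and 2126, 1823 and 2010 in PBS (log2 fold change 0.79, SE 0.23, adjusted p = 0.0332, limma). The groups did not overlap, and IL-33 replicate 1 was nearest to PBS. Among fits without 1 library, Derl1 was called only without IL-33 replicate 1. It had 0.77 and 0.58 without IL-33 replicates 2 and 3, and 0.84, 0.73 and 0.80 without PBS replicates 1, 2 and 3. With equal totals it stood at −0.25, and without Rn45s at 0.36.

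Derl2, its paralog, had 147, 52.3 and 62.7 normalized counts after IL-33 and 143, 146 and 126 in PBS. Replicate 1 was slightly above the PBS values, whereas replicates 2 and 3 were far below it (log2 fold change −0.80, SE 0.37, adjusted p = 0.124, limma), and without replicate 1 Derl2 was called (−1.25, adjusted p = 3.57e-04, limma). Per kilobase, Derl1 exceeded Derl2 by 40.6, 163 and 177 times after IL-33, against 36.0, 30.3 and 38.6 times with PBS. The size of this ratio depends on the lengths used, all annotated exons together, 3.328 kb for Derl1 and 8.049 kb for Derl2. Only 34 and 37 reads of Derl2 lay behind its values in IL-33 replicates 2 and 3. Derl3, the paralog known from secretory cells, was the least abundant member, at 10.8, 16.9 and 30.5 normalized counts after IL-33 and 7.77, 10.2 and 12.6 in PBS (0.77, SE 0.44, adjusted p = 0.202, limma), and was called without IL-33 replicate 1 (1.11, adjusted p = 0.0444, limma).

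Edem1 encodes a mannosidase-like protein that marks misfolded glycoproteins for degradation (chromosome 6, 108828641 to 108859356). It had 4007, 5893 and 3966 normalized counts after IL-33 and 3346, 2786 and 2518 in PBS (log2 fold change 0.67, SE 0.21, adjusted p = 0.0402, limma). All IL-33 libraries were higher, with replicate 2 highest. The call was lost when IL-33 replicate 2 was left out (0.48) and when PBS replicate 1 (0.78), 2 (0.65) or 3 (0.57) was. With equal totals it stood at −0.38, and without Rn45s at 0.24. Edem2, a paralog that starts mannose trimming (chromosome 2, 155701677 to 155729475), had 119, 123 and 102 after IL-33 and 167, 191 and 174 in PBS, again without overlap (−0.63, SE 0.19, adjusted p = 0.0348, limma). Leaving out IL-33 replicate 1 kept the call. It ended on leaving out IL-33 replicate 2 (−0.68), IL-33 replicate 3 (−0.55) or any of PBS replicates 1 (−0.67), 2 (−0.58) and 3 (−0.64). The ratio of Edem1 to Edem2 per kilobase was 18.1, 25.7 and 20.9 after IL-33, against 10.8, 7.84 and 7.77 with PBS, higher in every IL-33 library under any scaling.

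Sel1l and Syvn1, which encode the SEL1L adaptor and the HRD1 ubiquitin ligase of the same complex, had log2 fold changes of 0.29 (adjusted p = 0.189, limma) and 0.31 (adjusted p = 0.245, limma). Sel1l had 1329, 1204 and 1064 normalized counts after IL-33 and 1060, 920 and 955 in PBS, just without overlap, and Syvn1 had 375, 454 and 576 after IL-33 and 382, 386 and 345 in PBS, with overlap at replicate 1. Without IL-33 replicate 1, Syvn1 was called (0.46, adjusted p = 0.0275, limma). Herpud1, whose product organises that complex, had 2812, 1300 and 1332 after IL-33 and 1761, 1610 and 1663 in PBS (0.02, SE 0.29, adjusted p = 0.973, limma). Replicate 1 lay above and replicates 2 and 3 below all PBS libraries. Without replicate 1 it was called in the lower direction (−0.35, adjusted p = 0.0368, limma), while replicate 1 stood 0.75 above the PBS mean on the log2 scale.

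**Figure D4:**
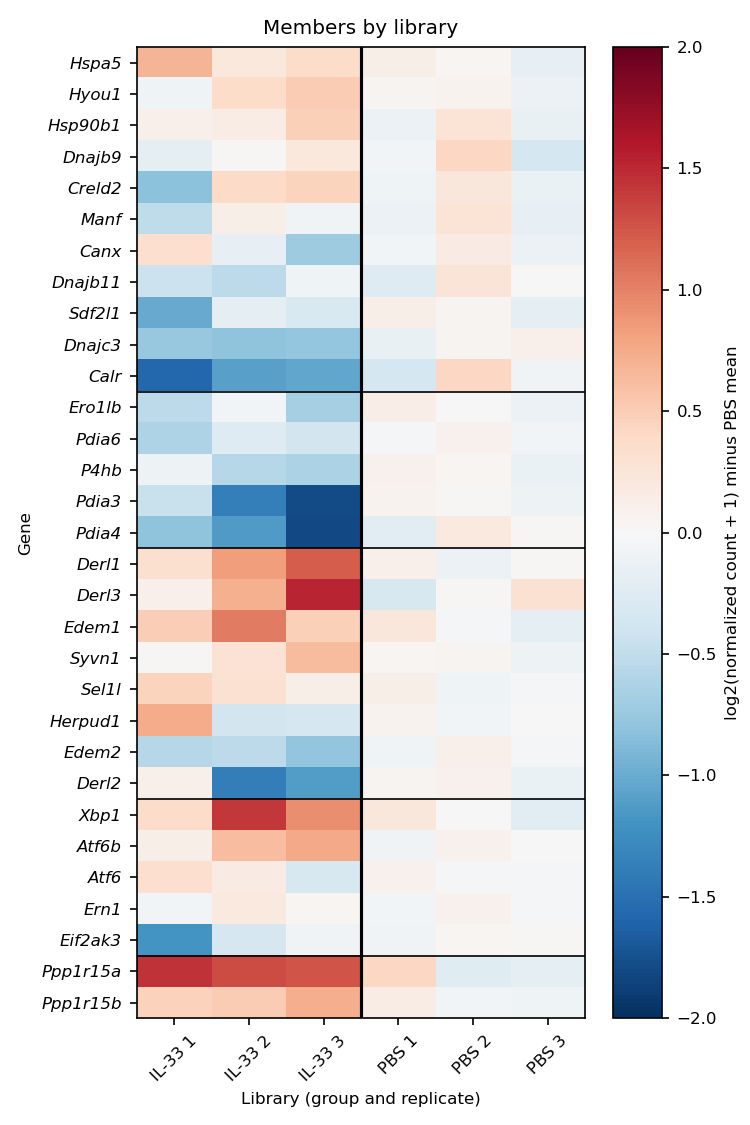
Log2(normalized count + 1) minus the PBS mean (colour, from −2 to 2) for the 31 genes (rows, grouped by role and ordered by fold change) in each library (columns). Ppp1r15a, Calr and Dnajc3 keep their sign in the 3 IL-33 libraries, whereas Herpud1, Creld2 and Derl2 differ between IL-33 replicate 1 and the other IL-33 libraries.

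Medians over the groups of members did not set IL-33 replicate 1 apart, except for the chaperones. A median can hide opposite shifts of single genes, such as those of Herpud1 and Derl2. The median difference from the PBS mean over the 31 members was −0.06, 0.12 and −0.07 on the log2 scale across IL-33 replicates 1 to 3. For the 11 chaperones it was −0.43, 0.02 and −0.07, and for the disulfide genes −0.52, −0.58 and −0.66. In the related lists described below, replicate 1 had the opposite sign for translocation (0.05, −0.38 and −0.82) and ER-to-Golgi transport (0.21, −0.13 and −0.34). Medians were −0.27, −0.03 and −0.03 for further folding genes, 0.19, 0.15 and −0.04 for degradation, and 0.45, 0.15 and 0.24 for the stress branches. Without IL-33 replicate 1, 9 members were higher and 9 lower of 31, near the 28.0% and 28.4% of all genes.

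Levels per kilobase of exon place the members within these cells. Derl1 had the highest mean after IL-33, at 1062 normalized counts per kilobase and 597 in PBS, followed by Hsp90b1 (817 after IL-33, 693 in PBS), Herpud1 (778 and 719) and Edem1 (716 and 447). In PBS the highest mean was that of Calr, at 816, which stood at 343 after IL-33. The order was not the same in every library: Herpud1, at 1205, was above Derl1, at 744, in IL-33 replicate 1, and Herpud1 was also the highest in PBS replicate 1. Neighbours in this order, such as Hsp90b1 and Herpud1, were not tested against each other. Derl3 (9.74 after IL-33, 5.11 in PBS), Derl2 (10.9 and 17.2) and Ero1lb (12.1 and 15.8) were the lowest.

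Other genes of the same pathways were taken from lists of function. Of 25 further folding genes tested, 2 were higher and 3 lower (8% and 12%, against 17.4% and 14.4% of all genes, median −0.15). Ero1l, the main ER oxidase and a target of hypoxia signalling, had 24513, 20351 and 18165 normalized counts after IL-33 and 7330, 4608 and 4123 in PBS, a 2.01 log2 fold change (SE 0.24, adjusted p = 0.00113, limma), and was called without each library in turn, though not with equal totals (0.97, adjusted p = 0.0574, limma). The oxidase gene of the member list, Ero1lb, was far less abundant. Sdf2, the paralog of Sdf2l1, was higher (1.03, SE 0.23, called without 3 of 6 libraries), and with equal totals stood at −0.01. Tmx4, a membrane-bound thioredoxin-like protein (−1.38, SE 0.26, called without each library), and Cnpy2 (−0.90, SE 0.20, called without 4 of 6 libraries) were lower. Left-out libraries gave 1 to 6 higher and 1 to 8 lower for this list, against 6.74% to 28.0% and 3.08% to 28.4% of all genes.

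Of 26 further degradation genes, 5 were higher and 1 lower (19.2% and 3.85%, against 17.4% and 14.4% of all genes, median 0.13). Nploc4, a cofactor of the ATPase VCP that pulls proteins out of the ER membrane, had 1147, 837 and 864 normalized counts after IL-33 and 565, 451 and 442 in PBS (0.96, SE 0.19). Ube2j2, a ubiquitin-conjugating enzyme of the ER (1.09, SE 0.25), and Aup1, which recruits such enzymes (0.71, SE 0.23), were higher, and Erlec1, a lectin of the pathway, was lower (−0.86, SE 0.25). With equal totals Nploc4, Ube2j2 and Aup1 stood at −0.08, 0.06 and −0.33. Leaving out PBS replicate 2 or PBS replicate 3 ended every call of this list. Without IL-33 replicate 1 there were 8 higher and 8 lower of 26, against 28.0% and 28.4% of all genes.

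Of 32 genes of translocation, signal cleavage and N-glycosylation, 1 was higher and 5 lower (3.12% and 15.6%, against 17.4% and 14.4% of all genes, median −0.33). Stt3b, a catalytic subunit of oligosaccharyltransferase, was the higher one (0.58, SE 0.19), and stood at −0.46 with equal totals. Ddost, another subunit of that enzyme (−0.81, SE 0.18), Sec11c of the signal peptidase (−1.43, SE 0.41) and Ssr2 of the translocon-associated complex (−1.24, SE 0.41) were lower, although edgeR did not call Ssr2 (adjusted p = 0.0763). Of 30 genes of ER-to-Golgi transport, 4 were higher and 3 lower (13.3% and 10.0%, against the same shares of all genes, median −0.06). The COPII genes Sec24a (0.83, SE 0.18) and Sar1a (0.68, SE 0.19) rose, as did Tmed9 (0.79, SE 0.24). The cargo receptor gene Lman1 (−1.17, SE 0.22), Sec23a (−0.76, SE 0.24) and Stx5a (−0.59, SE 0.18) fell. With equal totals Sec24a, Sar1a and Tmed9 stood at −0.20, −0.36 and −0.25. Both lists lost every call when PBS replicate 2 or PBS replicate 3 was left out. Without IL-33 replicate 1 the counts were 3 higher and 16 lower of 32 for translocation and 7 and 7 of 30 for transport. All genes were then 28.0% higher and 28.4% lower.

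Of 25 further genes of the stress branches, 9 were higher and 4 lower (36.0% and 16.0%, against 17.4% and 14.4% of all genes, median 0.10). Map3k5, the kinase ASK1 that acts downstream of IRE1 and of other stresses, had 5107, 7131 and 8864 normalized counts after IL-33 and 1507, 1684 and 1485 in PBS (2.14, SE 0.21, adjusted p = 5.32e-04, limma). Ddit4, an inhibitor of mTORC1 induced by many stresses, had 2815, 4177 and 5788 after IL-33 and 1196, 1134 and 944 in PBS (1.91, SE 0.26, adjusted p = 0.00195, limma). Both were called without each library in turn and with equal totals (1.10 and 0.87). Trib3, a target of ATF4 and CHOP, had 91.7, 175 and 183 after IL-33 and 62.9, 50.9 and 43.3 in PBS (1.45, SE 0.31, adjusted p = 0.0113, limma), and was called without 3 of the 6 libraries.

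Of the other eIF2alpha kinases, Eif2ak4, which encodes GCN2, had 90.8, 66.1 and 76.3 normalized counts after IL-33 and 196, 215 and 246 in PBS (−1.49, SE 0.21, adjusted p = 0.00214, limma), with the call kept without each library. Eif2ak1, which encodes the haem-regulated kinase, was lower as well (−0.73, SE 0.18, adjusted p = 0.0171, limma), as was Mbtps1, the protease that first cuts ATF6 (−0.58, SE 0.16, adjusted p = 0.0291, limma), which was called without 1 of the 6 libraries. Of the factors of the PERK branch, Atf4 had 2670, 1901 and 1691 after IL-33 and 1564, 1238 and 1085 in PBS (0.68, SE 0.22, adjusted p = 0.0482, limma), and Atf3 had 706, 428 and 459 after IL-33 and 363, 239 and 282 in PBS (0.83, SE 0.25, adjusted p = 0.0364, limma). Both were higher without overlap, but each was called without only 2 of the 6 libraries and stood at −0.36 and −0.21 with equal totals, and edgeR did not call Atf4 (adjusted p = 0.0515). Ddit3, which encodes CHOP, the pro-apoptotic factor of that branch, had 285, 138 and 202 after IL-33 and 242, 311 and 232 in PBS (−0.38, SE 0.28, adjusted p = 0.317, limma), with overlap, and was called lower without IL-33 replicate 1 (−0.63, adjusted p = 0.0228, limma). These 3 genes are outside the rule for naming genes and were chosen after their values were seen. Left-out libraries gave 3 to 11 higher and 1 to 10 lower for this list, against 6.74% to 28.0% and 3.08% to 28.4% of all genes.

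**Figure D5:**
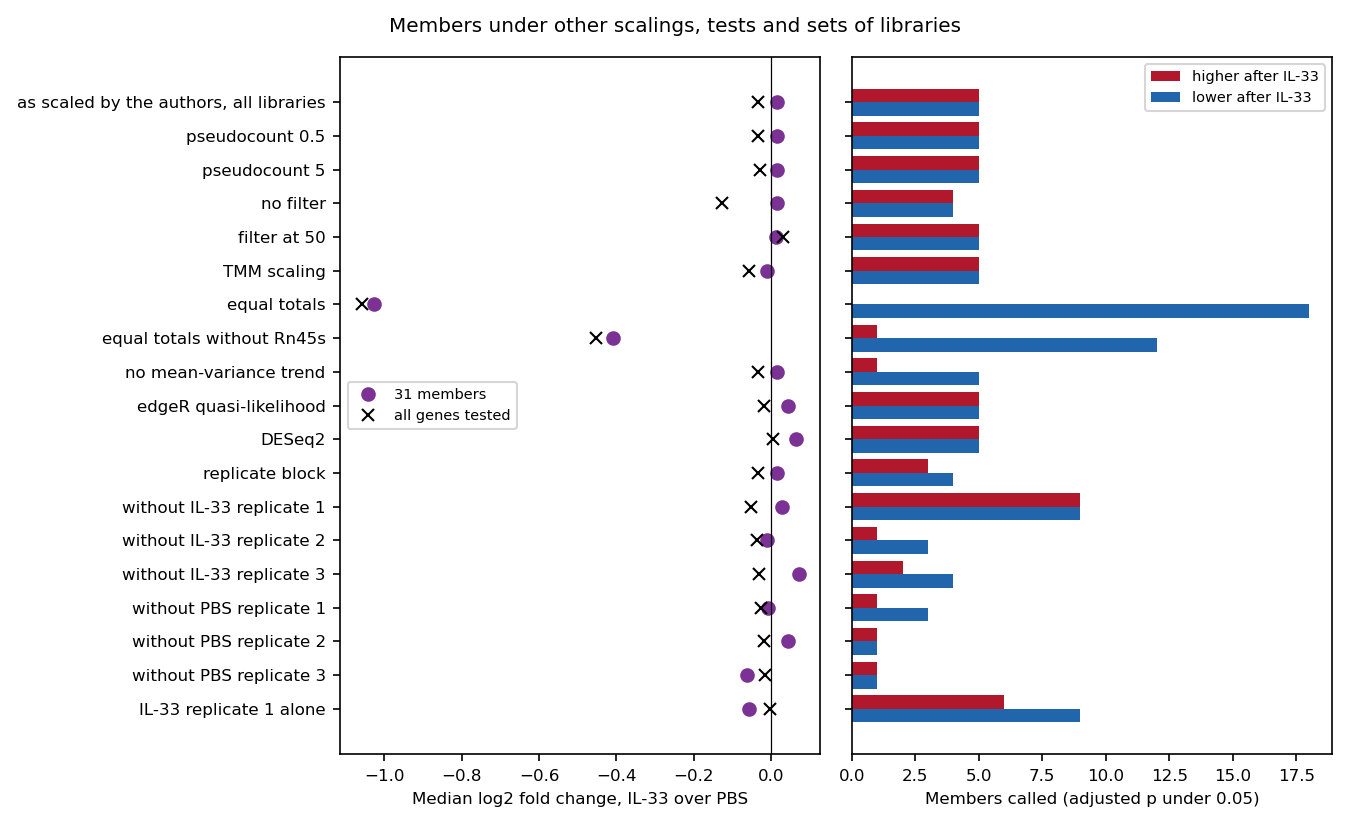
Left, median log2 fold change (IL-33 over PBS) of the 31 members (circles) and of all genes tested (crosses) in the fit as reported and in each alternative. Right, members called higher and lower. The circles follow the crosses under every scaling, at −1.03 and −1.06 with equal totals, and the number called ranges from 1 higher and 1 lower to 9 higher and 9 lower across left-out libraries. In those fits 6.74% to 28.0% of all genes were higher and 3.08% to 28.4% lower.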

How the data were processed

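RNA of 6 libraries, depleted of ribosomal RNA and made with a directional kit per the labels' protocols, was sequenced. The authors deposited normalized counts per gene, a signal in which each library's counts had been divided by 1 factor. HISAT2, HTSeq, DESeq2 and build mm10 are named in the submitters' processing notes. The sources used here give no tool versions, annotation or strand setting for the counting, so overlapping and antisense genes may share reads. Values were whole multiples of each library's smallest value (100% within 0.1 read), which gave the reads behind each value. The test was limma 3.58.1 (lmFit, eBayes with trend, R 4.3.3) on log2(value + 1), IL-33 minus PBS, two-sided, for genes with a value of at least 10 in at least 3 libraries, with Benjamini-Hochberg adjustment over all 10544. Fold changes on this scale understate those of low genes. The labels name no molecular identifiers, so reads may repeat a molecule. Alternatives were other pseudocounts, filters and scalings, no trend, edgeR 4.0.16 and DESeq2 1.42.0 on recovered reads, a replicate block, and left-out libraries. The limma step was tested on simulated data. Coordinates are 1-based spans of GENCODE vM21 (GRCm38, mm10), to which all 31 symbols matched. Promoter sequences are from RefSeq, GRCm38.p6. The members, lists and motifs were chosen with earlier results of these data known. Named genes were all members and, of each related list, up to 3 called genes per direction with a mean of at least 50.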

Additional observations from a re-analysis of the deposited data

How the results depend on the processing

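The counts of 5 higher and 5 lower members were kept with pseudocounts of 0.5 and 5, a filter at 50, TMM scaling, edgeR and DESeq2. Those fits called 16.8% to 21.4% of all genes higher and 14% to 15.4% lower. Without a filter the counts were 4 and 4, against 10.1% and 8.31% of all genes. Without a mean-variance trend 1 was higher and 5 lower, against 15.1% and 13.4% of all genes. Xbp1, Derl1 and Edem1 then lost their calls, and only 1 of the 2 eIF2alpha phosphatase subunits kept its call. Left-out libraries gave 1 to 9 higher and 1 to 9 lower, against 6.74% to 28.0% and 3.08% to 28.4% of all genes. The median of the members was −0.06 to 0.07 over these fits, and −0.06 with IL-33 replicate 1 alone. Equal totals gave 0 higher and 18 lower (median −1.025), and equal totals without Rn45s 1 higher and 12 lower (median −0.409). The medians of all genes moved with them, to −1.06 and −0.45.

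With equal totals, log2 fold changes that were positive as reported became −0.6201 for Hspa5, −0.8002 for Hsp90b1, −0.7751 for Hyou1, −1.009 for Dnajb9, −1.028 for Creld2, −1.025 for Herpud1, −0.7505 for Sel1l, −0.7243 for Syvn1, −0.3759 for Edem1, −0.2523 for Derl1, −0.1983 for Derl3, −0.9733 for Atf6, −0.5417 for Atf6b, −0.9799 for Ern1, −0.1331 for Xbp1 and −0.4798 for Ppp1r15b. Without Rn45s they became −0.003786 for Hspa5, −0.1837 for Hsp90b1, −0.1586 for Hyou1, −0.4011 for Dnajb9, −0.4145 for Creld2, −0.409 for Herpud1, −0.1344 for Sel1l, −0.1091 for Syvn1, −0.3585 for Atf6 and −0.3653 for Ern1. TMM gave −0.007604 for Dnajb9, −0.01833 for Creld2 and −0.01067 for Herpud1. Dnajb9 was −0.03269 in edgeR and −0.01169 in DESeq2.

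With IL-33 replicate 1 alone the sign turned in Hyou1 (−0.0828), Canx (0.336), Dnajb9 (−0.177), Creld2 (−0.8128), Derl2 (0.09714) and Ern1 (−0.0569). Over left-out libraries, the members whose sign turned ranged from −0.4361 to 0.0847 (Canx), −0.1614 to 0.2244 (Dnajb9), −0.2137 to 0.418 (Creld2), −0.2901 to 0.02765 (Manf), −0.3497 to 0.2069 (Herpud1), −0.07372 to 0.2543 (Atf6) and −0.01166 to 0.1157 (Ern1). The cause was not tested.

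The replicate numbers were not taken as pairs. Deviations of same-numbered libraries correlated at 0.0459, 0.242 and −0.164 across genes, and only IL-33 replicate 2 correlated best with its own number. From 3 libraries per group these values cannot decide whether the numbers pair the samples. With the replicate block 3 members were higher and 4 lower of 31, against 15.4% and 12.3% of all genes. Edem1 (adjusted p = 0.0523), Edem2 (0.0689) and Ppp1r15b (0.0607) were then not called in limma. Depth of 4229504 to 7129435 reads outside Rn45s limits low genes such as Derl3.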
